A study of Mus musculus with 29 samples.

Results

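One week of high-fat feeding in young mice was described here across the whole islet transcriptome. The comparison takes the 6 RNA libraries from islets of 8-week-old mice, 3 from mice on the high-fat diet and 3 from mice on the standard diet, out of 14 RNA libraries and 29 libraries in all. All mice were wild-type males of the inbred strain C57BL/6. Fat gave 41% of kcal in the high-fat diet and 13.1% in the standard diet, and both were eaten for 1 week. The labels do not say whether a library came from 1 mouse or from pooled mice, so the p-values measure the spread between these libraries, which may be partly technical. Old islets, from mice of 52 weeks on the same diets, were used for a test of whether the diet difference depended on age, for a second fit in which all RNA samples share 1 estimate of the spread, and beside young islets in the plot of gene size.

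Islets are small clusters of endocrine cells in the pancreas. Their most numerous cells in the mouse are beta cells, which make, fold, process and store insulin and release it when glucose rises. A diet rich in fat raises the demand for insulin, and beta cells can answer by secreting more, by enlarging their secretory machinery and by dividing. Freshly isolated islets carry other cells along, among them acinar cells, which make digestive enzymes, as well as vessels, nerves and immune cells.

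All 12 beta cell markers were measured, and their mean level ran from 10.8 to 10.9 log2 CPM over the 6 libraries. Depth was 69608544 to 79652561 counts per library, in which both reads of a pair were probably counted. Values below are TMM-normalised CPM (each count over its library's adjusted total), listed for libraries 1 to 3 of each diet. Standard-diet library 1 stood apart by its lymphocyte markers, whose mean level was 3.39 log2 CPM against -0.83 to 0.78 in the other 5. High-fat library 1 stood apart by its acinar markers, at 5.51 log2 CPM against 8.86 to 9.89. Results that change most without these 2 libraries are also given without both, which leaves 2 libraries against 2.

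Of 16724 genes tested, 5 passed an adjusted p of 0.05 by edgeR, or 0.0299% (0.0179% as higher and 0.012% as lower). The unadjusted p was under 0.05 for 2858 genes, 8.55% of those tested as higher and 8.54% as lower. H2afx, a histone variant that is phosphorylated around DNA breaks, rose, and so did Usp51, a deubiquitinase gene, and the uncharacterised E530001K10Rik. Cpm, which encodes a carboxypeptidase of the cell surface, fell, and so did the antibody gene Ighg2b. Cpm had 24.6, 22 and 24.4 CPM on the standard diet and 14, 12.6 and 12.7 CPM on the high-fat diet, a log2 difference of -0.85 (SE 0.07). Usp51 had 11.8, 12.7 and 13.1 CPM on the standard diet and 21, 20.5 and 22 CPM on the high-fat diet, a difference of +0.75 (SE 0.07), and the diets were far apart against the spread within each. E530001K10Rik had 20.3, 19.3 and 20.7 CPM on the standard diet and 31.5, 31.9 and 33.1 CPM on the high-fat diet. Leaving out any 1 library left 0 calls by edgeR (1750 to 2707 genes at an unadjusted p under 0.05), while DESeq2 on the same counts called 707 (371 higher, which is 2.07% of the genes it adjusted, and 336 lower, 1.87%). The authors' deposited table, made with DESeq2, lists 617 genes past the same threshold (364 higher, 253 lower). When library sizes were scaled by total counts alone, 1 of 5 calls was higher, against 3 of 5. Most differences below therefore did not pass by edgeR, and "higher" and "lower" describe the libraries, with DESeq2's adjusted p beside the genes described most fully.

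Genes whose 3 high-fat libraries lay above all 3 standard-diet libraries made up 12.2% of those tested, and genes with all 3 below made up 12%. The median log2 difference, high-fat minus standard, was -0.02 over all genes, and -0.09 with scaling by total counts. Small positive list medians, and counts of members that were higher, therefore depend on the scaling. Against that background, the lists with the largest share of members above were those of mitosis (51 of 56), respiratory complexes II to IV (20 of 24), entry of proteins into the endoplasmic reticulum (15 of 21) and heat shock (13 of 19). The list of beta cell transcription factors had 10 of 19 below.

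**Figure D1:**
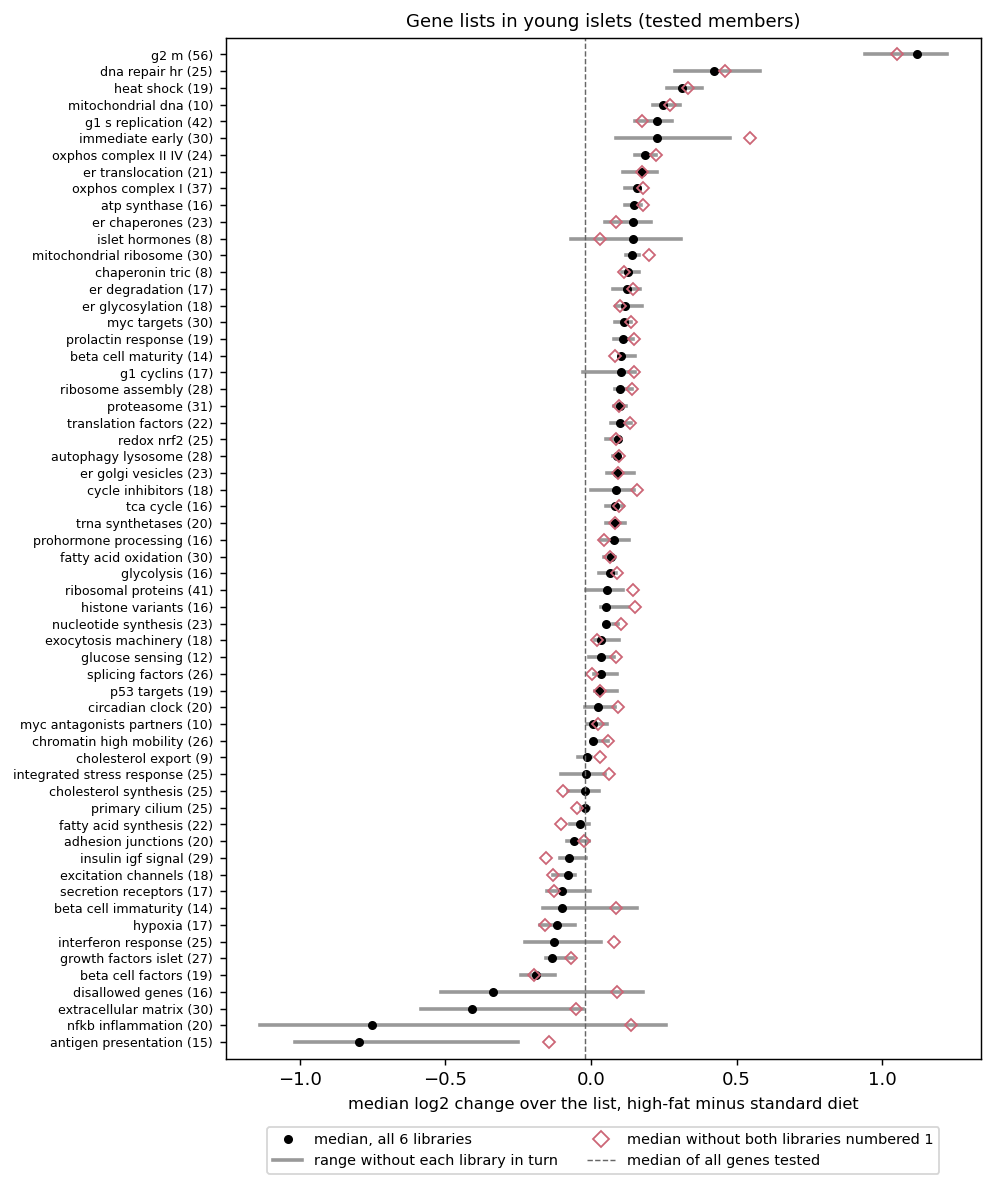
Median log2 difference between diets (x axis) for each list of genes of 1 function (y axis, tested members in brackets), with the range when each library is left out and the value without both libraries numbered 1. The mitosis list (g2 m) lies farthest right at +1.12, while the matrix, inflammation and antigen presentation lists at the left lie nearer 0 without those libraries.

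The hormone genes of beta cells were all higher. Ins1 and Ins2 together took 24.5, 26.1 and 25.3% of all counts in the standard-diet libraries and 30.2, 28.6 and 29.2% in the high-fat libraries. The log2 difference was +0.29 (SE 0.09) for Ins2 and +0.28 (SE 0.08) for Ins1. Iapp, the gene of the amyloid peptide secreted with insulin, differed by +0.28 (SE 0.09). In none of the 3 genes did the diets overlap, and DESeq2 called all 3 (adjusted p 5.03e-05, 8.50e-06 and 3.72e-04). Ins1 and Ins2 are near-identical, so their reads may be shared. Glucagon of alpha cells did not follow: Gcg had 30722, 16295 and 21320 CPM on the standard diet and 16477, 19861 and 15117 CPM on the high-fat diet, with overlapping diets and a difference of -0.41 (SE 0.23), which was -0.10 without both libraries numbered 1. Sst, the somatostatin gene of delta cells, differed by -0.04 (SE 0.13).

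The transcription factors that maintain beta cells went the other way from the hormones. Of 19 such factors 16 were lower, 10 of them without overlap, at a median log2 difference of -0.19. Without both libraries numbered 1 the median was -0.19, and DESeq2 called 7 of them lower. Pdx1, which activates the insulin genes and is needed for the pancreas to form, had 193, 172 and 191 CPM on the standard diet and 139.6, 125 and 133 CPM on the high-fat diet. The groups do not overlap, and the log2 difference was -0.48 (SE 0.07). edgeR gave it an adjusted p of 0.091, DESeq2 one of 3.12e-07. It passed in the fit where all RNA samples shared 1 estimate of the spread (adjusted p 0.0195), a fit in which 0.108% of genes passed as higher and 0.153% as lower, and which called 2 of the 5 genes above, H2afx and Cpm. Hnf4a, a nuclear receptor mutated in an inherited diabetes, had 29, 29.9 and 30.4 CPM on the standard diet and 24.7, 23.1 and 23.1 CPM on the high-fat diet. Mnx1, a homeobox factor of beta cells, differed by -0.51 (SE 0.09), and Nkx2-2, a homeobox factor that represses other islet fates, by -0.30 (SE 0.07). Mafa, an activator of insulin transcription found in mature beta cells, had 143, 98 and 118 CPM on the standard diet and 99.4, 79.3 and 74.2 CPM on the high-fat diet; the lowest standard-diet library lies just under the highest high-fat one.

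Genes of glucose sensing and secretion were mixed. G6pc2, whose islet enzyme removes phosphate from glucose 6-phosphate and so opposes glucokinase, had 2078, 2555 and 2276 CPM on the standard diet and 3562, 3417 and 3702 CPM on the high-fat diet, a log2 difference of +0.63 (SE 0.10), with 2.28e-11 as DESeq2's adjusted p. The 3 high-fat libraries lay well above the 3 others. Pcx, the anaplerotic pyruvate carboxylase, was lower, at -0.23 (SE 0.07) and Gpd2, of the glycerol phosphate shuttle, by -0.24 (SE 0.08), both without overlap but without a call by either tool. Kcnj11, the pore of the ATP-sensitive potassium channel, had 61.4, 61.6 and 62.2 CPM on the standard diet and 52.1, 54.4 and 54.3 CPM on the high-fat diet, and Itpr1, a calcium channel of the endoplasmic reticulum, differed by -0.42 (SE 0.12). Among receptors, P2ry1, which responds to extracellular ADP, had 67, 104 and 76 CPM on the standard diet and 164, 138 and 174 CPM on the high-fat diet, a difference of +0.94 (SE 0.17), with 2.78e-08 as DESeq2's adjusted p. Sstr3, a somatostatin receptor, was higher by +0.54 (SE 0.11), whereas the fatty acid receptor gene Ffar1 was lower, at -0.14 (SE 0.05) with no call. Rab3a, a small GTPase of secretory granules, was higher by +0.25 (SE 0.05). Of the 16 tested genes that process and store prohormones, 13 were higher, against 45.8% of all genes, at a median of +0.08 and with no call. With scaling by total counts 8 of the 16 were higher, at +0.01.

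**Figure D2:**
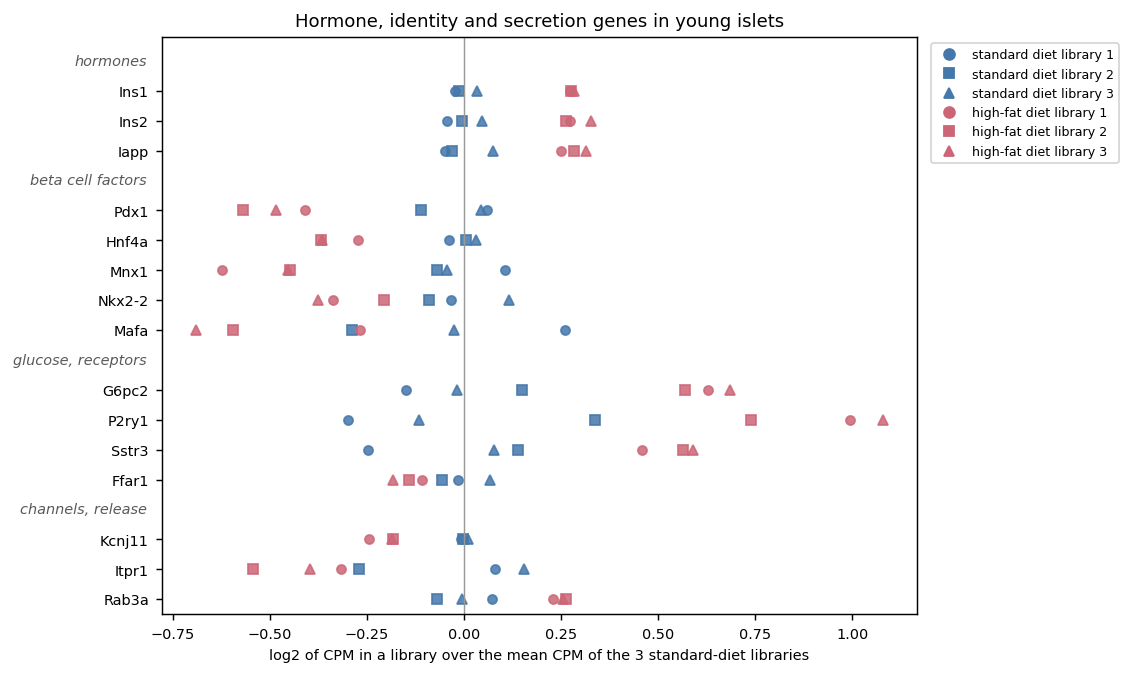
Level of each gene in each library (points), as log2 of its CPM over the mean of the 3 standard-diet libraries (x axis). The 3 high-fat libraries lie to the right of the others for insulin, Iapp, G6pc2, P2ry1, Sstr3 and Rab3a, and to the left for Pdx1, Hnf4a, Mnx1, Nkx2-2, Ffar1, Kcnj11 and Itpr1, while Mafa overlaps.

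Genes that move new proteins into and through the endoplasmic reticulum (ER) were mostly higher. All 21 tested genes of the translocation list were higher, 15 without overlap, at a median log2 difference of +0.18 that stayed between +0.11 and +0.23 when each library was left out. With scaling by total counts 18 of the 21 were higher, at +0.11. Srp19, a subunit of the signal recognition particle, had 18.3, 17.3 and 19.3 CPM on the standard diet and 25.3, 28.8 and 26.1 CPM on the high-fat diet, a difference of +0.55 (SE 0.07), with 6.61e-06 as DESeq2's adjusted p. Sec11c and Spcs1, subunits of the signal peptidase that trims entering proteins, differed by +0.28 (SE 0.06) and +0.34 (SE 0.09), and Srprb, of the particle's receptor, by +0.34 (SE 0.09). DESeq2 called 5 of the 21. Of 18 glycosylation genes 15 were higher, among them Prkcsh, a glucosidase subunit, by +0.22 (SE 0.05) and Ost4, of the oligosaccharide transferase, by +0.26 (SE 0.06). Of 23 genes of vesicles between ER and Golgi 23 were higher with all libraries, at a median of +0.09, 17 without both libraries numbered 1, and 16 with scaling by total counts, at +0.02. Sar1b, the GTPase that starts those vesicles, differed by +0.27 (SE 0.05).

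Removal and refolding of misfolded protein were represented as well. Herpud1, which serves the removal of misfolded proteins from the ER, had 174, 180.4 and 206 CPM on the standard diet and 280.0, 316 and 339 CPM on the high-fat diet, a difference of +0.74 (SE 0.09), with an adjusted p of 0.0819 from edgeR and 8.47e-12 from DESeq2. Syvn1, the ubiquitin ligase of the same route, had 99.1, 105 and 109 CPM on the standard diet and 138, 149 and 133 CPM on the high-fat diet. Both passed with the spread shared over all RNA samples (adjusted p 0.0445 and 0.0285). Of the chaperones of the ER lumen, 21 of 23 were higher but only 5 without overlap. Hspa5, also called BiP, had 1553, 1317 and 1697 CPM on the standard diet and 1997, 1794 and 1837 CPM on the high-fat diet, a difference of +0.30 (SE 0.11). Dnajb9, its co-chaperone, differed by +0.43 (SE 0.11) and Manf, a secreted ER stress protein, by +0.29 (SE 0.10).

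Several of these genes carry the known ER stress elements before their start, and 3 promoters are shown because they hold that shared sequence. The elements and genes shown were chosen after the values were seen; of 10 motifs searched, the 3 whose letters are described here are both ER stress elements and the cell cycle element further on. RefSeq promoters (GRCm38.p6, the 250 bases before the start) matched 18 of the 23 chaperone genes and 12 of the 17 degradation genes. The first element, ERSE (CCAAT, any 9 bases, then CCACG), searched on both strands, stood in 7 of those 18 and 2 of those 12 genes against 0.13% of all genes and 0.113% of all promoters in the table. The second, ERSE-II (ATTGG, any base, then CCACG), searched likewise, stood in 1 of the 12, against 0.037% of all genes and 0.0304% of all promoters. Both contain the letters of a CCAAT box, read on one strand or the other. Of the 14 translocation genes matched, 0 held either element in this window. The capitals below mark the match.
Herpud1, chr8:94386179-94386428, plus strand: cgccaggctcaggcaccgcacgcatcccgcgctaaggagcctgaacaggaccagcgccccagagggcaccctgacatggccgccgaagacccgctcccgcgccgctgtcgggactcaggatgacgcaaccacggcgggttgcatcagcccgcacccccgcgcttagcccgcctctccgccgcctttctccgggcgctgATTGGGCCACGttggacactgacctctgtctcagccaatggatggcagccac
Syvn1, chr19:6046326-6046575, plus strand: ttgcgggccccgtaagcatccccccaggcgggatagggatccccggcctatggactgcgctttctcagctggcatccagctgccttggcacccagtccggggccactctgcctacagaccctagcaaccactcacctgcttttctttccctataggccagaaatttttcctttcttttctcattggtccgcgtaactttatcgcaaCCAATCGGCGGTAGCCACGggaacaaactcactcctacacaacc
Hspa5, chr2:34771840-34772089, plus strand: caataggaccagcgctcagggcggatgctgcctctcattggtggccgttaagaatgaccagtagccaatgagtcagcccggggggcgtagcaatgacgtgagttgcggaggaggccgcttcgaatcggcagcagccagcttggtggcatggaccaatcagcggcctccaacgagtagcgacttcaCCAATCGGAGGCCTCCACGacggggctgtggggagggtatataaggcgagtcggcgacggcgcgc
In these 3 sequences the match begins 52, 44 and 65 bases before the start. A match describes letters only.

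Cytosolic chaperones were higher too. All 19 tested heat shock genes were higher, 13 without overlap, at a median of +0.31, and DESeq2 called 9. Hsph1, a large chaperone that assists Hsp70, had 89.7, 120.0 and 118 CPM on the standard diet and 154, 171 and 169 CPM on the high-fat diet, a difference of +0.59 (SE 0.11). Dnaja1 and Hspa8, another co-chaperone and the constitutive Hsp70, differed by +0.37 (SE 0.08) and +0.31 (SE 0.08), and Hsp90aa1, an inducible Hsp90, by +0.29 (SE 0.07). All 31 proteasome genes were also higher, 12 of them without overlap, at a median of +0.10. With scaling by total counts 23 were higher, at +0.03, and relative to genes of like span and level the median was +0.05. Psmd7, of its lid, had 54.8, 54.1 and 54.9 CPM on the standard diet and 60.7, 60.7 and 60.1 CPM on the high-fat diet. The 8 genes of the folding ring TRiC were higher too, for example Cct8 by +0.19 (SE 0.06). The integrated stress response was not higher as a list: 12 of 25 members were higher, at a median of -0.02, and 15 without both libraries numbered 1, at +0.06. Its transcription factor Atf4 nevertheless had 259.9, 307 and 285 CPM on the standard diet and 358, 357 and 388 CPM on the high-fat diet, and 3 of its known targets were higher without overlap. These were Chac1, a glutathione-degrading enzyme, by +0.73 (SE 0.15), Ddit4, an inhibitor of mTORC1, by +0.49 (SE 0.11) and Ddit3, also called CHOP, by +0.34 (SE 0.09). DESeq2 called these 4 genes, the only members of the list of 25 that were higher without overlap, while 2 were lower without overlap. Over all genes tested 12.2% were higher and 12% lower without overlap.

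**Figure D3:**
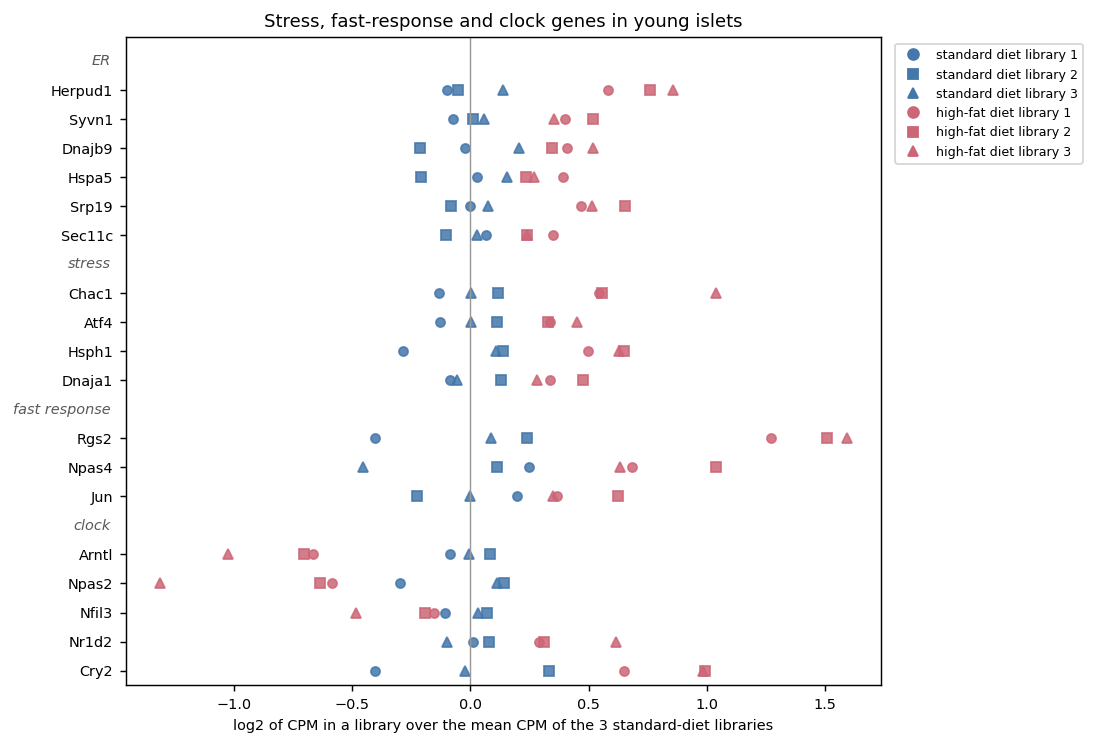
Level of each gene in each library (points), as log2 of its CPM over the mean of the 3 standard-diet libraries (x axis), for genes of the ER, stress, fast responses and the clock. The diets do not overlap for any gene shown; Arntl, Npas2 and Nfil3 lie to the left and the others to the right.

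Mitochondrial genes were higher by small and similar amounts. For complex I, 36 of 37 tested genes were higher and 24 without overlap, for complexes II to IV 24 of 24 and 20, and for ATP synthase 16 of 16 and 10. With scaling by total counts 32, 21 and 14 of these were higher. The medians were +0.16, +0.18 and +0.15. Ndufa4, listed here with complex I although its protein works in complex IV, had 51.4, 46.4 and 48.3 CPM on the standard diet and 58, 59.3 and 57.5 CPM on the high-fat diet, and Ndufa12, of complex I, differed by +0.27 (SE 0.05). Cox7a2 and Cox6a1, of complex IV, differed by +0.24 (SE 0.05) and +0.25 (SE 0.06), and Atp5g3, of the ATP synthase ring, by +0.23 (SE 0.05). Genes read from mitochondrial DNA showed the same direction in 9 of 10 tested, for example mt-Nd5 by +0.24 (SE 0.08) and mt-Nd2 by +0.30 (SE 0.11). Of 30 mitochondrial ribosome genes 28 were higher, among them Mrps12 by +0.37 (SE 0.08). Across these lists DESeq2 called between 1 and 4 genes each. The median genomic span of the genes of complex I, of complexes II to IV and of ATP synthase was 8.37, 5.52 and 7.34 kb, and after the median of genes of like span and level was subtracted the medians were +0.10, +0.09 and +0.07.

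Of 41 ribosomal protein genes 34 were higher but 0 without overlap, and their median of +0.05 became -0.02 with scaling by total counts. Without both libraries numbered 1 all 41 were higher, at +0.15, and the median ran from -0.02 without standard-diet library 2 to +0.11 without standard-diet library 1. The genes that assemble ribosomes were higher in 23 of 28 cases, 12 without overlap, including Gnl3, a nucleolar GTPase gene, at 22.5, 25 and 22.8 CPM on the standard diet and 32, 30.4 and 29.4 CPM on the high-fat diet, and Nop16, a nucleolar protein gene, by +0.48 (SE 0.09). Hars, the histidine tRNA synthetase, was higher by +0.36 (SE 0.07).

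Of 30 tested genes of fatty acid oxidation 20 were higher and 9 without overlap, although the median of +0.07 turned negative with scaling by total counts. Cpt1a, which admits long-chain fatty acids to mitochondria, had 37.2, 38.2 and 38.9 CPM on the standard diet and 58.1, 50.9 and 53.9 CPM on the high-fat diet, a difference of +0.51 (SE 0.06). Its adjusted p was 0.0819 by edgeR, 1.00e-07 by DESeq2 and 0.0115 with all RNA samples in 1 fit. Etfb, which takes electrons from fatty acid oxidation, differed by +0.29 (SE 0.07) and Pex11a, which multiplies peroxisomes, by +0.49 (SE 0.14). Genes of fat synthesis had no common direction: Scd1, the desaturase, had 21.9, 10.0 and 11.9 CPM on the standard diet and 8.04, 6.53 and 7.67 CPM on the high-fat diet, while Lpin1, which forms diacylglycerol, was higher by +0.42 (SE 0.12). Scd1 is highest in the lymphocyte-rich library, and its difference of -0.98 (SE 0.29) was -0.62 without both libraries numbered 1. Srebf2, the master activator of cholesterol synthesis, had 137, 135 and 140.1 CPM on the standard diet and 119.7, 109 and 114 CPM on the high-fat diet, a difference of -0.26 (SE 0.05). Over the 25 cholesterol genes 11 were higher, at a median of -0.02, but 3 without both libraries numbered 1, at -0.10. The median ran from -0.08 to +0.03 when each library was left out.

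Cell division genes gave the largest list median. Of the mitosis list's 56 tested genes 55 were higher and 51 without overlap, at a median of +1.12, which ranged from +0.94 to +1.22 when each library was left out and was +1.05 without both libraries numbered 1. Hmmr, a spindle protein gene, had 2.37, 2.04 and 2.31 CPM on the standard diet and 6.85, 5.28 and 5.21 CPM on the high-fat diet, and Pbk, a mitotic kinase gene, had 2.59, 2.22 and 2.62 CPM on the standard diet and 9.38, 6.48 and 6.24 CPM on the high-fat diet. Spc25, a kinetochore gene, had 138, 172 and 166 CPM on the standard diet and 261, 251 and 257 CPM on the high-fat diet, a log2 difference of +0.69 (SE 0.09). Ckap2, Cenpf, Ube2c and Cdca3 differed by +1.66 (SE 0.21), +1.44 (SE 0.22), +1.32 (SE 0.22) and +1.18 (SE 0.15). Mki67, a label of dividing cells, had 14.3, 9.16 and 12 CPM on the standard diet and 31.3, 17.3 and 22.7 CPM on the high-fat diet. High-fat library 1, the acinar-poor one, was the highest for each of these 8 genes. Spc25 lay far above the others in level, and its lowest library on each diet was also the lowest for G6pc2. G6pc2 had 2078, 2555 and 2276 CPM on the standard diet and 3562, 3417 and 3702 CPM on the high-fat diet. Whether Spc25 and G6pc2 share reads was not tested. Of 44 mitosis genes with a RefSeq promoter, 15 (34.1%) held TTTGAA on either strand in the 250 bases before the start, the letters of the cell cycle element CHR, against 18.3% of all genes in the promoter table and 12.8% of tested genes. By promoter the shares were 36.2%, 16% and 10.7%. Ckap2, which is not in the mitosis list, also held TTTGAA in this window and is shown with the match in capitals.
Ckap2, chr8:22185820-22186069, minus strand: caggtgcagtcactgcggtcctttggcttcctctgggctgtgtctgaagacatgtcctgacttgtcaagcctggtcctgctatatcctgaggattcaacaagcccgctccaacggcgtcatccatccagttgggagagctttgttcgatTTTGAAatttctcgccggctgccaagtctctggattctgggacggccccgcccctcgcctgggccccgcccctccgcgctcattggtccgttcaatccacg

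In the list of G1 and S phase 36 of 42 genes were higher and 16 without overlap, at a median of +0.23, among them E2f1, which starts S phase, by +0.41 (SE 0.10) and Clspn, of the replication checkpoint, by +0.98 (SE 0.27). Chek1, the kinase of that checkpoint, differed by +0.85 (SE 0.22), and Neil3, a DNA glycosylase gene, by +1.4 (SE 0.30). H2afx itself had 11.6, 12.1 and 11.8 CPM on the standard diet and 19, 20.4 and 18.8 CPM on the high-fat diet, and H2afz, another histone H2A variant, had 31.6, 31.7 and 32 CPM on the standard diet and 36.5, 36.9 and 36.9 CPM on the high-fat diet, passing with all RNA samples in 1 fit (adjusted p 0.0328). Of 18 inhibitors of the cycle 11 were higher and 6 without overlap. Cdkn1a, also called p21, had 24.8, 33.9 and 24.7 CPM on the standard diet and 42.8, 51.1 and 48 CPM on the high-fat diet, a difference of +0.76 (SE 0.14); Cdkn2c, an inhibitor of Cdk4 and Cdk6, differed by +0.73 (SE 0.10) and Gadd45b, a stress-induced growth arrest gene, by +0.62 (SE 0.13). DESeq2 called these 3. Ccnd2, the main D cyclin of beta cells, differed by +0.22 (SE 0.09) with overlapping diets, and Cdkn2a, which accumulates with age, had 0.306, 0.212 and 0.236 CPM on the standard diet and 0.279, 0.358 and 0.405 CPM on the high-fat diet.

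Several fast-response genes of stimulated cells were higher. Rgs2, which dampens signals of receptors coupled to Gq, had 137, 214 and 193 CPM on the standard diet and 437, 515 and 547 CPM on the high-fat diet, a difference of +1.46 (SE 0.17), with an adjusted p of 0.0819 from edgeR and 4.90e-22 from DESeq2. Each high-fat library had more than the highest standard-diet library. Npas4, induced by calcium in neurons and beta cells, had 42.8, 39 and 26.3 CPM on the standard diet and 57.9, 74 and 55.9 CPM on the high-fat diet, and the AP-1 genes Jun and Jund differed by +0.45 (SE 0.13) and +0.45 (SE 0.12). Over the list 18 of 30 were higher, at a median of +0.23; without both libraries numbered 1, 28 of 30 were, at +0.55. Standard-diet library 1 had the highest level of this list.

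Myc, the subject of the series, had 21, 11.8 and 11.9 CPM on the standard diet and 14.5, 19.6 and 14.3 CPM on the high-fat diet. The highest library of all is standard-diet library 1, the diets overlap, and the difference of +0.11 (SE 0.25) was +0.52 without both libraries numbered 1. Of 30 listed targets of Myc, 22 were higher and 11 without overlap, at a median of +0.11. With scaling by total counts 19 were higher, at +0.04, and relative to genes of like span and level the median was +0.05. Srm, the spermidine synthase, had 38.1, 29.5 and 35.2 CPM on the standard diet and 51, 53.7 and 50.7 CPM on the high-fat diet and passed with all RNA samples in 1 fit (adjusted p 0.0253). Max, the partner of Myc, differed by +0.19 (SE 0.04), and Mxd3, a competitor for Max, by +1.5 (SE 0.27). Mxd3 was low, with 79.9 as the authors' mean normalised count. In the list of partners and antagonists of Myc 5 of 10 were higher and 5 lower, at a median of +0.008. Without overlap 3 were higher and 2 lower. Inhbb, a subunit of activin, had 1.91, 2.32 and 1.61 CPM on the standard diet and 3.85, 4.69 and 4.1 CPM on the high-fat diet and also passed with all RNA samples in 1 fit (adjusted p 0.0253). Its list of islet growth factors went the other way, with 8 of 27 higher and 19 lower, at a median of -0.13. Without overlap 1 was higher and 3 were lower. Igfbp3, which binds insulin-like growth factors, was higher by +0.48 (SE 0.08), while Rictor, of mTORC2, and Pik3r1, of PI3 kinase, were lower, at -0.32 (SE 0.06) and -0.38 (SE 0.09). In the list of insulin signalling 7 of 29 were lower without overlap and 2 higher, at a median of -0.08, or -0.16 without both libraries numbered 1. Prlr, the prolactin receptor, differed by +0.11 (SE 0.06), and Tph1, the serotonin enzyme induced in pregnancy, had 0 to 31 counts per library and was not tested. Slc18a2, which loads monoamines into granules, differed by +1.26 (SE 0.29). Txnip, a glucose-induced gene, had 359, 342 and 346 CPM on the standard diet and 378, 397 and 358 CPM on the high-fat diet.

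Clock genes differed in both directions. Arntl, also called Bmal1, the positive arm of the clock, had 28.3, 31.8 and 29.9 CPM on the standard diet and 19, 18.4 and 14.8 CPM on the high-fat diet, a difference of -0.79 (SE 0.10), with an adjusted p of 0.0819 from edgeR and 1.35e-08 from DESeq2. Npas2, its partner, had 7.3, 9.91 and 9.71 CPM on the standard diet and 5.99, 5.78 and 3.62 CPM on the high-fat diet. Among repressors, Cry2 had 73.9, 123 and 96.4 CPM on the standard diet and 153, 194 and 193 CPM on the high-fat diet, and Nr1d2, which represses Arntl, differed by +0.41 (SE 0.10). Of the 20 tested members 4 were higher and 4 lower without overlap. The labels give no hour of collection, so time of day and diet cannot be told apart for these genes. Npas2 and Nfil3 were chosen after their values were seen.

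Ndrg1 and Bnip3, both induced by low oxygen, differed in opposite directions, by -0.27 (SE 0.06) and +0.33 (SE 0.08). Of 28 genes of lysosomes and autophagy 12 were higher without overlap and 0 lower, including Wipi1, of forming autophagosomes, by +0.28 (SE 0.06) and Hexa, a lysosomal hexosaminidase, by +0.22 (SE 0.05). By sign alone 21 were higher, at a median of +0.09, but 16 with scaling by total counts, at +0.02. Relative to genes of like span and level the median was +0.05. Timp3, an inhibitor of matrix proteases, was higher by +0.48 (SE 0.10) and Col15a1, a basement membrane collagen, lower, at -0.48 (SE 0.10). Il1r1, an interleukin 1 receptor abundant in islets, differed by +0.41 (SE 0.14). Gc, the vitamin D binding protein, was higher by +0.56 (SE 0.12), Mpc2, of the mitochondrial pyruvate carrier, by +0.23 (SE 0.06), and Krt7, a keratin, by +0.24 (SE 0.07). Among genes with the largest differences kept without both libraries numbered 1 were also Fam107a at +1.4 (SE 0.32), a stress-responsive actin-binding gene, Dlk1 at +1.42 (SE 0.38), an imprinted Notch-like gene, and Nrgn at +1.61 (SE 0.40), a calmodulin-binding gene.

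Apart from antibody genes, the 3 largest negative differences among the named genes belonged to the Reg family, secreted lectins of acinar and stressed endocrine cells. Reg2 (chromosome 6, 78405155 to 78408097 in mm10, plus strand) had 177, 61.3 and 174 CPM on the standard diet and 0.279, 8.15 and 8.72 CPM on the high-fat diet, a log2 difference of -4.59 (SE 0.94). Reg3b, in the same cluster, had 33, 16.3 and 26.9 CPM on the standard diet and 0.223, 2.31 and 1.78 CPM on the high-fat diet, Reg3a differed by -4.63 (SE 0.88) and Reg3g by -2.49 (SE 0.73). High-fat library 1 was the lowest for Reg2, Reg3a and Reg3b. All 25 tested acinar markers were lower, 5 without overlap, and their summed level was 64760, 31065 and 69050 CPM on the standard diet and 3393, 54529 and 55601 CPM on the high-fat diet. Without both libraries numbered 1 the differences of Reg2 and Reg3b were still -3.8 and -3.4, while the acinar list had a median of +0.20 there, and acinar Ctrb1 differed by -0.10. No Reg gene passed by edgeR (adjusted p 0.116 for Reg2 and 0.0995 for Reg3b), and DESeq2 called all 4. The authors' deposited table gives an adjusted p of 0.0409 for Reg3b, 0.00931 for Reg3g and 0.241 for Reg3a, and none for Reg2. Reg genes resemble one another, so reads may be shared among them. Itih4 and Gm5771, a trypsinogen-like gene, were lower, at -2.38 (SE 0.82) and -2.7 (SE 0.79).

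B cell and antibody genes were higher on the standard diet. In bulk tissue, fewer cells of a type and less RNA per cell cannot be told apart. All 12 tested B cell markers were lower on the high-fat diet, 10 without overlap, at a median of -2.33, and their summed level ran from 51.8 to 709 CPM on the standard diet and from 19.0 to 34.5 CPM on the high-fat diet. Ighm had 594, 30.6 and 56.5 CPM on the standard diet and 11, 18.6 and 16.4 CPM on the high-fat diet and Pax5, the B cell factor, had 10.3, 1.6 and 1.69 CPM on the standard diet and 0.502, 0.507 and 0.58 CPM on the high-fat diet, so library 1 carried most of it. Without both libraries numbered 1 the list's median was -0.71 and all 12 were still lower. Spib, Cd180, Wdfy4, Ccr2 and Plekho2, all genes of leukocytes, were lower, at -3.00 (SE 0.88), -1.92 (SE 0.59), -2.27 (SE 0.59), -1.46 (SE 0.43) and -1.42 (SE 0.40), or -1.66, -1.06, -1.2, -1.01 and -0.75 without those libraries. Igkc, an antibody light chain, had 799, 30.9 and 53.3 CPM on the standard diet and 8.46, 14.9 and 13.4 CPM on the high-fat diet. Ighg2b, which fell, had 7.3, 5.94 and 4.88 CPM on the standard diet and 0.112, 0.343 and 0.202 CPM on the high-fat diet, so all 3 standard-diet libraries were high. Antibody genes resemble one another, and their reads may be shared. T and NK cell markers had a median of -2.49 with 1 of 10 higher, and -0.10 with 3 of 10 higher without both libraries numbered 1. Their mean levels in standard-diet libraries 2 and 3, -1.82 and -1.48 log2 CPM, lay in the range of high-fat libraries 2 and 3, -1.95 and -1.71, or just above it. Macrophage genes had a median of -1.03, or -0.24 without both, with Lyz2 at 93.5, 22.1 and 20.9 CPM on the standard diet and 12.2, 14.4 and 20.4 CPM on the high-fat diet. With all libraries and then without both, the medians of fibroblast genes were -1.25 and +0.07, of matrix genes -0.41 and -0.05, and of inflammation genes -0.75 and +0.14.

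Schwann cell markers, from the glia of islet nerves, were higher with and without those libraries. Of 14 tested, 12 were higher and 6 without overlap, at a median of +1.00, or +1.02 without both. Cdh19, a glial cadherin, had 0.485, 0.26 and 0.669 CPM on the standard diet and 2.32, 1.22 and 2.92 CPM on the high-fat diet. Hand2, a factor of autonomic neurons and mesenchyme that is not in the Schwann list, had 1.81, 0.968 and 1.18 CPM on the standard diet and 3.66, 3.38 and 5.12 CPM on the high-fat diet, a difference of +1.62 (SE 0.29). Of 11 tested neuron markers 7 were higher, 1 without overlap. For pericytes and smooth muscle 3 of 11 markers were higher, 1 without overlap. The summed level of the Schwann list was 31.1 to 37.4 CPM on the standard diet and 40.2 to 51.9 CPM on the high-fat diet. The part of these cells in the other differences was not tested.

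**Figure D4:**
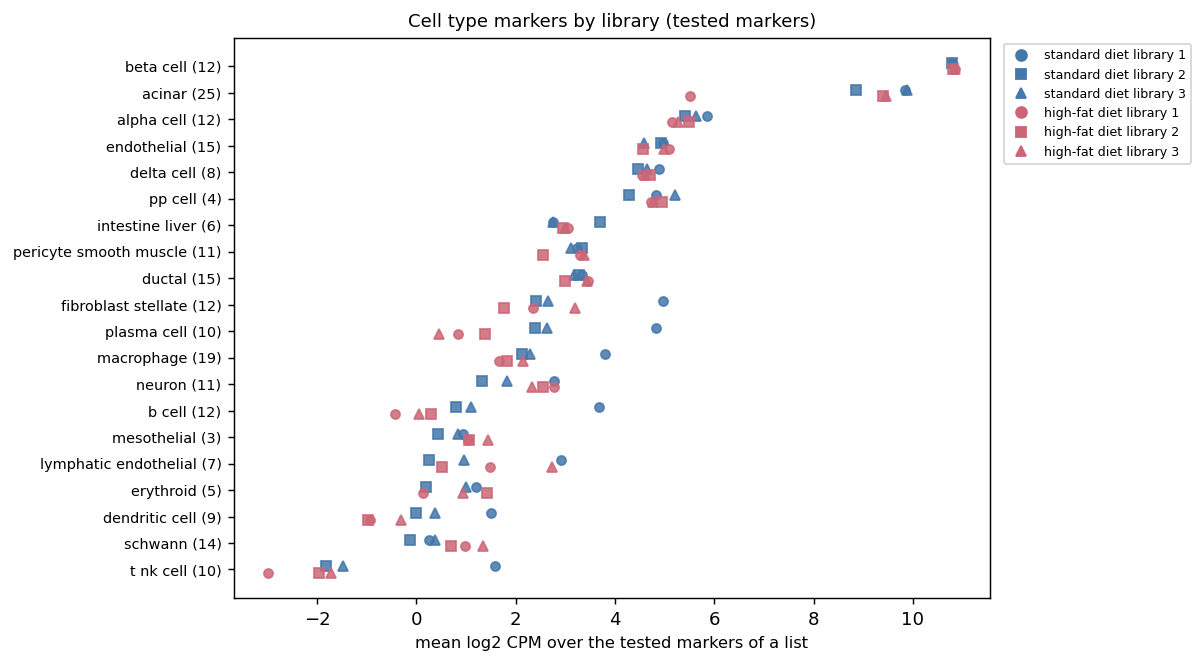
Mean log2 CPM over the tested markers of each cell type (x axis) in each library (points), with the number of markers in brackets. Standard-diet library 1 is the highest in B, T, plasma, macrophage and fibroblast markers, and high-fat library 1 is the lowest in acinar markers. The mean over the 12 beta cell markers hardly varies, but 5 of them were higher and 2 lower on the high-fat diet without overlap.

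Across all genes the difference followed gene size. In 5 bins of genomic span, from genes under 5.51 kb to genes over 66.3 kb, the median log2 difference was +0.02, +0.01, -0.01, -0.03 and -0.06. The share higher without overlap was 15.6% in the shortest bin and 5.29% in the longest, and the share lower 8.34% and 16.1%. The difference followed mean level as well. From the lowest to the highest of 5 level bins the median was -0.15, -0.11, -0.02, +0.003 and +0.02. Without both libraries numbered 1 the lowest and the highest level bin had -0.07 and +0.008. The diets also differed in library quality: reads in untranslated regions were 24.6 to 25.5% on the standard diet and 25.8 to 26.8% on the high-fat diet, and ribosomal RNA 1.73 to 2.04% and 2.09 to 2.32%. The part of read composition in these small differences was not tested.

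**Figure D5:**
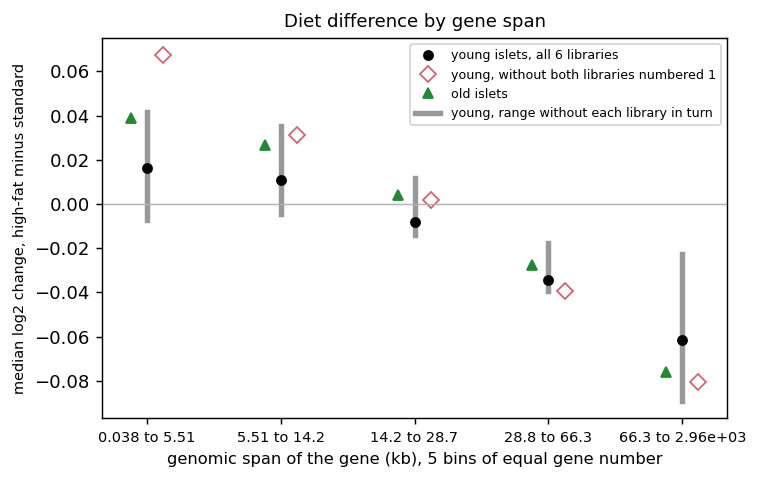
Median log2 difference between diets (y axis) in 5 bins of genomic span in kb (x axis), for young islets with all libraries, with each library left out and without both libraries numbered 1, and for old islets. Medians are highest in the shortest and lowest in the longest bin in young islets, without both libraries numbered 1 and in old islets.

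Whether the response differed between young and old islets was tested by the interaction of diet and age. Of 17644 genes 36 passed by edgeR, 6 with a young difference above the old one (0.034%) and 30 below it (0.17%). H2afx differed by +0.72 (SE 0.06) in young and -0.06 (SE 0.06) in old islets. Hbegf, a growth factor of the EGF family, had 11.7, 12.5 and 12.5 CPM on the standard diet and 10.6, 7.7 and 9.62 CPM on the high-fat diet and differed by -0.39 (SE 0.12), against +1.06 (SE 0.15) in old islets. Ppp1r3c, which directs a phosphatase to glycogen, had 7.96, 11.4 and 9.2 CPM on the standard diet and 4.14, 4.56 and 4.02 CPM on the high-fat diet, a difference of -1.17 (SE 0.15) against +1.26 (SE 0.22). Nfil3, a clock output repressor, differed by -0.27 (SE 0.10) against +1.27 (SE 0.14), Hand2 by +1.62 against -0.95 (SE 0.25), and the keratin Krt18 by +0.24 (SE 0.07) against +0.92 (SE 0.07). For Reg2 the values were -4.59 and +3.15 (SE 1.09), with an interaction adjusted p of 0.083. The count of 36 was 0 without both libraries numbered 1 (1854 at an unadjusted p under 0.05), between 0 and 10 without 1 young library, and 193 when old high-fat libraries 1 and 4, counted here as 1 sample, were kept apart. Ppp1r3c was chosen after its values were seen. With no hour of collection in the labels, time of day and age cannot be told apart in this test. In standard-diet samples Arntl had 28.3, 31.8 and 29.9 CPM in young and 10.7, 14.5 and 9.7 CPM in old islets. The young values were normalised over the young libraries alone and the old values over the samples of both ages.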

How the data were processed

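RNA was measured in islets of young mice on 2 diets, 3 libraries each. Per the labels' protocols, RNA was extracted with Trizol and stranded poly(A) libraries were made. Per the submitters' processing notes, the tools included STAR 2.4.2a and featureCounts 1.4.3 on mm10. The deposited read counts per gene are raw, and the strand setting of counting is not given in the sources used here. The authors deposited a DESeq2 table of log2 fold changes, p-values and a mean normalised count (used as a score), and a quality table of percentages of reads and coverage ratios at transcript ends.

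Counts were tested with edgeR 4.0.16 (filterByExpr, TMM, quasi-likelihood test, Benjamini-Hochberg, threshold 0.05), in R 4.3.3, on all genes of the 6 libraries, with DESeq2 1.42.0 and limma 3.58.1 as alternatives. Statistics were tested on simulated data. Of 45232 genes, 16724 were tested; 207 share a symbol with another. Gene size is genomic span, not exon length. Replicate numbers did not pair the libraries. The 69608544 to 79652561 counts per library exceed, in each library, the reads or read pairs given in the quality table. Both reads of a pair were therefore probably counted. Independent fragments would then be fewer than the counts, and precision lower than the counts imply. Whether this raised the chi-square values below was not tested. Other alternatives were filters, scalings, each library left out, lymphocyte and acinar covariates, the replicate block and a fit over both ages. Methylation and transcript-estimate files were not used.

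For the fits over both ages, old libraries of 1 diet whose counts differed little were summed: standard-diet 2 and 4 (median chi-square 2.91 per gene) and high-fat 1 and 4 (3.08); other pairs had 10.1 or more. The limit of 5 was raised from 3 after these values were seen.

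Named genes were those called; up to 12 higher and 12 lower with the largest differences (unadjusted p under 0.05, mean of at least 2 CPM, no overlap, at least 0.5 of the difference kept without both libraries numbered 1); up to 4 members per list with the smallest p; up to 2 per marker list by level; and 15 set genes. The text prints 135 genes, chosen after their values were seen; some genes the rule names are not reported here. The lists and the comparison were chosen with earlier results of these data known.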

Additional observations from a re-analysis of the deposited data

Results flagged for a closer look

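In 6 genes named above the diet difference itself differed between young and old islets by edgeR's test of the interaction. The values are young minus old on the log2 scale. The interaction was 0.78 for H2afx (SE 0.09, adjusted p 0.0276), 2.56 for Hand2 (SE 0.36, adjusted p 0.0388), -1.45 for Hbegf (SE 0.21, adjusted p 0.0388), -0.68 for Krt18 (SE 0.10, adjusted p 0.0388), -1.54 for Nfil3 (SE 0.20, adjusted p 0.0346) and -2.43 for Ppp1r3c (SE 0.31, adjusted p 0.0330). These 6 were named for other reasons or chosen after their values were seen, out of 36 genes past the threshold, and none stayed past it without both young libraries numbered 1.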

How the results depend on the processing

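The count of 5 genes called for diet in young islets became 19 with no filter on low counts, 707 with DESeq2, 46 when RNA samples of both ages were fitted together (2 of the 5 among them; Usp51 had an adjusted p of 0.0600, E530001K10Rik 0.0534 and Ighg2b 0.101), 198 when old high-fat libraries 1 and 4 were also kept apart (4 of the 5), 2 with the acinar level as a covariate (0 of the 5), 0 with the lymphocyte level as a covariate (2145 at an unadjusted p under 0.05) and 0 with the replicate block (2929). Same-numbered libraries did not deviate together (r -0.0346, 0.0935 and -0.00543), so the block pairs numbers only. Without each library in turn the count was 0 (1750 to 2707), and was 4 without both libraries numbered 1, of which 1 (Ighg2b, adjusted p 0.0290) was among the 5. The count of 36 interaction calls became 449 with DESeq2, 0 without both libraries numbered 1, 0 to 10 without each young library and 193, including all 36, with old high-fat libraries 1 and 4 kept apart; this, scaling by total counts and matching on span were added after seeing the data. Summing those 2 libraries therefore sets much of the count. The interaction was not fitted with the replicate block, because summed samples carry 2 numbers.

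Over the 135 printed genes, 2333 of 2564 alternative values had the direction and call first reported, 165 gained a call, 56 lost one and 10 reversed, in 4 genes. Over all 305 genes the rule names, 80 of 5789 values reversed, in 38 genes; the 173 left unprinted were left out after their values were seen, so the first figures do not describe the rule's genes as a whole. With the lymphocyte covariate Gcg was 0.16, Lyz2 0.29 and Sst 0.093; Sst was 0.063 without both libraries numbered 1 and 0.059 with the acinar covariate. Without each library Myc ranged from -0.044 to 0.45 and Sst from -0.15 to 0.042. The cause of these changes was not tested. Scaling by total counts lowered the median of all genes to -0.09 and turned positive medians negative for ribosomal proteins, glycolysis, fatty acid oxidation, glucose sensing, exocytosis, the clock, histone variants, targets of p53, nucleotide synthesis, chromatin proteins, splicing factors, partners of Myc, and markers of endothelial, erythroid and intestine or liver cells.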
